A study of Mus musculus with 24 samples.

Results

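Per1, Per2, Per3, Cry1, Cry2 and Ciart code for the Period, cryptochrome and Ciart repressors of the circadian clock. These 6 genes were taken by symbol from a table of 24421 genes measured in mouse liver, and all 6 were found and passed the filter on low counts. RNA-seq had been carried out on the medial liver lobe of C57BL/6 mice after an injection of MitoCDNB, a chlorodinitrobenzene joined to a triphenylphosphonium cation that carries it into mitochondria. The 4 groups, of 6 mice each, had received MitoCDNB at 5 mg/kg or a vehicle of 0.1% ethanol, and livers were collected 1 h or 4 h later. All mice were of the same strain and no group went without an injection. The sources used here state neither age, sex and feeding nor the hour of day of injection and collection. The lobe holds every cell type of the liver, and the labels name no single cell type.

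In the mouse clock, the activators CLOCK and BMAL1 (the product of Arntl) bind E-box sequences and switch on the Period and cryptochrome genes and Ciart. PER and CRY proteins then form complexes that repress CLOCK and BMAL1, and CIART represses them as well, which closes a daily loop of transcription in liver as in most tissues. Per1 is also known as an early-response gene that CREB and the glucocorticoid receptor can induce, and Per3 is a well-known target of factors that bind the D-box, such as DBP and TEF.

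The promoters of the members with a difference between groups are shown with the matches to clock and cAMP motifs found in them. RefSeq, on build GRCm38.p6, gave a promoter for 5 of the 6 genes, as 250 bases before and 50 after an annotated start. Per1 had 2 annotated starts, at chr11:69098699-69098998 and chr11:69099902-69100201 on the plus strand. The windows of Per3 (chr4:151044616-151044915), Cry2 (chr2:92434020-92434319) and Ciart (chr3:95882179-95882478) lie on the minus strand and are written 5′ to 3′ along the gene. Capitals mark the E-box (CACGTG), the related E′-box (CACGTT), the D-box (TTATGTAA) and the core of the cAMP response element (TGACG), found on either strand.
Per1, the first start: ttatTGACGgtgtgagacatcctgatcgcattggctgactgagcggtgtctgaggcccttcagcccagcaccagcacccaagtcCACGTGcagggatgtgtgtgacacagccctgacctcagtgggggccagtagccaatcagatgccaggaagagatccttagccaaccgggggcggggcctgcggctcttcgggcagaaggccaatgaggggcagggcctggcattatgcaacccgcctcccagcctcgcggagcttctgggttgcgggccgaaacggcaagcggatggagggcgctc
Per1, the second start: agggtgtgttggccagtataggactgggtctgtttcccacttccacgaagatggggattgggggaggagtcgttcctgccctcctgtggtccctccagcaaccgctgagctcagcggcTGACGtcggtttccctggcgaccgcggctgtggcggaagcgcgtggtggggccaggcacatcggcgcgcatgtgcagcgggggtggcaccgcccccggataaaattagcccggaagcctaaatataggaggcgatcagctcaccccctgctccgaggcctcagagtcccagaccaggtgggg
Per3: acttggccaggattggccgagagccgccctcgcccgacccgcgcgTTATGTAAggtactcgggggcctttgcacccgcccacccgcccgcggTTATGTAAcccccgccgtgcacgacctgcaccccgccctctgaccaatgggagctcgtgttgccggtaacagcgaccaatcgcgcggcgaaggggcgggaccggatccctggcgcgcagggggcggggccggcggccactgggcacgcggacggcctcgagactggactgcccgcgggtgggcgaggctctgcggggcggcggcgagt
Cry2: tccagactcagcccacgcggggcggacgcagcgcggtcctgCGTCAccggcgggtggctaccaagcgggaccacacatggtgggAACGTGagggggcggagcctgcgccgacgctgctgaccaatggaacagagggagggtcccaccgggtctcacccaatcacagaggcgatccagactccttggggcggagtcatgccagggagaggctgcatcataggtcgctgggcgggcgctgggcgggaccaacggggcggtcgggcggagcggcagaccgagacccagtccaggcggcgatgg
Ciart: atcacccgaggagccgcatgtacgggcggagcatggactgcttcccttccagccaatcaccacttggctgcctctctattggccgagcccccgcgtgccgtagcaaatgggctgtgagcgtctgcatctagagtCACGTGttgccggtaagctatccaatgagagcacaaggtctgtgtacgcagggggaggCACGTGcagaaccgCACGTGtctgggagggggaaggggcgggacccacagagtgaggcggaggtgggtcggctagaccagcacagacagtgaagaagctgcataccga

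Ciart held 3 E-boxes, which began 116, 58 and 44 bases before the start. Among 32851 RefSeq promoter windows of the same length, 7.15% held at least 1 E-box and 0.0883% held 3 or more. Per3 held 2 D-boxes, at 205 and 158 bases before the start. A D-box was present in 0.938% of all windows, and 2 or more in 0.0213%. The first Per1 window had an E-box 166 bases before its start, and each Per1 window had a cAMP response element core, at 246 and 132 bases before its own start. Cry2 had the same core at 209 bases and an E′-box at 166 bases before its start. The core was found in 20.8% of all windows and the E′-box in 4.69%. Cry1, whose window is not shown (chr10:85185005-85185304, minus strand), held an E′-box, an E-box and a core at 79, 60 and 8 bases before its start. No window of a member held the full cAMP response element, the core followed by TCA, present in 1.79% of windows, or the glucocorticoid element GNACA and TGTNC set 3 bases apart, present in 0.475%. The core lies within the full element, an E-box reads the same on both strands, and no other motifs overlapped. These are matches of letters and no binding was measured.

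**Figure D1:**
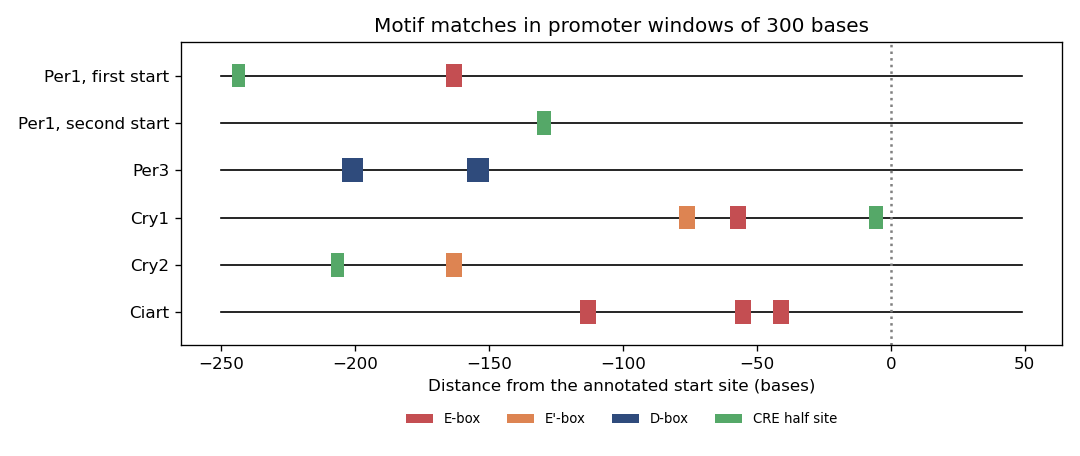
Position of each motif match in the promoter windows of Per1, Per3, Cry1, Cry2 and Ciart, in bases from the annotated start (x axis), with a row per window and a bar per match coloured by motif. Ciart carries 3 E-boxes and Per3 carries 2 D-boxes.

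Libraries held between 25.1 M and 37.2 M counts (mean 30.3 M), and a member had between 48 and 2437 counts in a library. Levels are given in CPM, the count share of a gene in the TMM-scaled library (trimmed mean of M values). Log2 fold changes with their standard errors (SE) and p-values are from the quasi-likelihood test of edgeR fitted to all 24 libraries, adjusted by the Benjamini-Hochberg method over 13833 genes, and calls were made under 0.05. All 8 hepatocyte markers were present, at a sum of 45739 to 84944 CPM. On the second principal component, vehicle replicate 1 (-28.7) and MitoCDNB replicate 2 (-37.2) of 4 h stood apart from the other libraries (-13.7 to 23.5). Replicates 4 to 6 of both 1 h groups held brain transcripts. The sum of the 9 brain markers was 11.6 to 22.5 CPM there, 5.68 to 10.7 CPM in replicates 1 to 3 of 1 h and 5.45 to 12.2 CPM at 4 h, and Snap25, a synaptic gene, was at 0 in every library of the last 2 sets. All 4 h libraries carry lower library numbers in the labels than all 1 h libraries, so time after injection and library order cannot be told apart. The labels do not say whether mice of different times were collected at the same hour of day.

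At 1 h after MitoCDNB, Per1, Cry2 and Ciart rose, and Per2 and Cry1 did not pass the test, nor did Per3, whose mean was lower. The 3 genes called were 3 of 6 members, beside 6.57% of all genes tested in that comparison. As the 6 genes were chosen with earlier results of these data known, counts of members called are descriptions. In each of the 3 genes called, every treated liver lay above every vehicle liver. The share of all genes tested that was separated in this way was not counted, here or in the comparisons below. In whole tissue, a change in RNA per cell and a change in the number of cells of a type cannot be told apart.

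Per1, a Period gene known to respond quickly to outside stimuli, was at 15.1, 28.8 and 46.1 CPM (lowest, median and highest) in vehicle livers and at 56.1, 57.2 and 71.6 CPM in MitoCDNB livers at 1 h. The groups did not overlap, and 4 of the 6 treated livers lay within 2 CPM of each other while the vehicle livers were spread. The mean rose from 30.3 ± 10.7 to 61.6 ± 7.56 CPM (SD, n = 6), 2.03-fold by the fit (log2 fold change 1.02, SE 0.299, edgeR adjusted p = 0.0417). This call sat near the threshold: it held without vehicle replicate 1 or 5 and was lost without each of the other 10 libraries of 1 h in turn (adjusted p up to 0.0900), with log2 values of 0.89 to 1.18. It was also lost with no filter on low counts (adjusted p = 0.0687) and with replicate number as a block within time (log2 1.09, adjusted p = 0.0687). Among the mice of replicates 1 to 3 the log2 fold change was 0.93 (adjusted p = 0.481), and 1.11 among those of replicates 4 to 6 (adjusted p = 0.286).

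Per2, a core subunit of the repressor complex, was at 8.98, 19.3 and 29.9 CPM in vehicle and at 12.5, 18.3 and 26.4 CPM in MitoCDNB livers at 1 h. The treated livers all lay inside the range of the vehicle livers, and the log2 difference was -0.13 (SE 0.270, edgeR adjusted p = 0.885). Per3, the Period gene that is dispensable for the core rhythm, was at 2.35, 6.20 and 8.42 CPM in vehicle and at 1.78, 3.0 and 5.41 CPM in MitoCDNB livers. All 6 treated livers were below the vehicle mean but the ranges overlapped, with vehicle replicate 3 as low as the treated mice. The log2 fold change of Per3 was -0.91 (SE 0.376) with an unadjusted p of 0.0253 and an edgeR adjusted p of 0.193. It was -1.29 within replicates 1 to 3 and -0.58 within replicates 4 to 6 (adjusted p = 0.376 and 0.753). As a description within livers, the log2 ratio of Per1 to Per3 CPM was 1.74 to 2.71 in vehicle livers and 3.73 to 5.10 in MitoCDNB livers of 1 h, with no overlap. The ratio sets a member that rose against the one with the lowest log2 value, and Per1 alone already separated these groups, so it adds no separate support. At 4 h the ratios overlapped, at -0.77 to 1.79 in vehicle and -1.26 to 2.48 in MitoCDNB livers.

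Cry2, a cryptochrome that represses CLOCK and BMAL1, was at 17.2, 22.5 and 26.8 CPM in vehicle and at 27.6, 33.99 and 36.5 CPM in MitoCDNB livers at 1 h. The lowest treated liver lay just above the highest vehicle liver. The mean rose from 22.3 ± 3.52 to 33.01 ± 3.45 CPM (SD, n = 6), 1.48-fold by the fit (log2 0.57, SE 0.112, edgeR adjusted p = 0.0018), the smallest of the 3 rises and the one with the smallest adjusted p. Its call held without any single library (adjusted p at most 0.00609). Replicates 4 to 6 alone gave a log2 value of 0.66 (adjusted p = 0.0248), and replicates 1 to 3 alone gave 0.47 (adjusted p = 0.199). In the GENCODE M21 annotation 295 exon bases of Cry2, 4.67% of the gene, also belong to D930015M05Rik on the other strand, and the sources used here do not give whether strand was used in counting. Cry1, the other cryptochrome, was at 4.57, 5.77 and 6.34 CPM in vehicle and at 3.58, 6.58 and 8.85 CPM in MitoCDNB livers. Treated livers lay on both sides of the vehicle range, 3 above its highest and 2 below its lowest value, and the log2 difference was 0.16 (SE 0.163, edgeR adjusted p = 0.717).

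Ciart, a repressor that joins the CLOCK and BMAL1 complex without being a Period or cryptochrome protein, was at 1.66, 2.29 and 2.98 CPM in vehicle and at 3.37, 5.63 and 10.4 CPM in MitoCDNB livers at 1 h. The treated livers split into replicates 2, 3 and 5, at 3.37 to 3.53 CPM, and replicates 1, 4 and 6, at 7.74 to 10.4 CPM. The mean rose from 2.26 ± 0.527 to 6.12 ± 3.04 CPM (SD, n = 6), 2.71-fold by the fit (log2 1.44, SE 0.374, edgeR adjusted p = 0.0210). The call was lost without vehicle replicate 4 (adjusted p = 0.0505), without MitoCDNB replicate 6 (log2 1.21, adjusted p = 0.0647) and with limma-voom with sample quality weights (log2 1.16, adjusted p = 0.0790). It was also lost with replicate number as a block within time (log2 1.34, adjusted p = 0.0701). The log2 value was 1.23 within replicates 1 to 3 and 1.59 within replicates 4 to 6 (adjusted p = 0.357 and 0.211).

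Neutrophil and cholangiocyte markers had higher values beside these rises, and their part in the rises was not tested. The 3 neutrophil markers, S100a8, S100a9 and Retnlg, all had counts in every library and summed to 1.8 to 5.52 CPM in vehicle and 5.69 to 9.45 CPM in MitoCDNB livers at 1 h. By edgeR 0 of 3 were called and 3 had an unadjusted p under 0.05 (median log2 1.31). The 5 cholangiocyte markers summed to 21.2 to 29.0 CPM in vehicle and 22.8 to 47.6 CPM in MitoCDNB livers at 1 h, with medians of 24.8 and 38.1 CPM. Of these 5, 1 was called higher, Spp1, and 4 had an unadjusted p under 0.05 (median log2 0.83). No endothelial, Kupffer and monocyte, stellate, lymphocyte or erythroid marker tested was called at 1 h. Median sums in vehicle and MitoCDNB livers were 171 and 154 CPM for endothelial and 202 and 198 CPM for Kupffer and monocyte markers. They were 129 and 117 CPM for stellate, 1.48 and 1.26 CPM for lymphocyte and 337 and 508 CPM for erythroid markers.

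**Figure D2:**
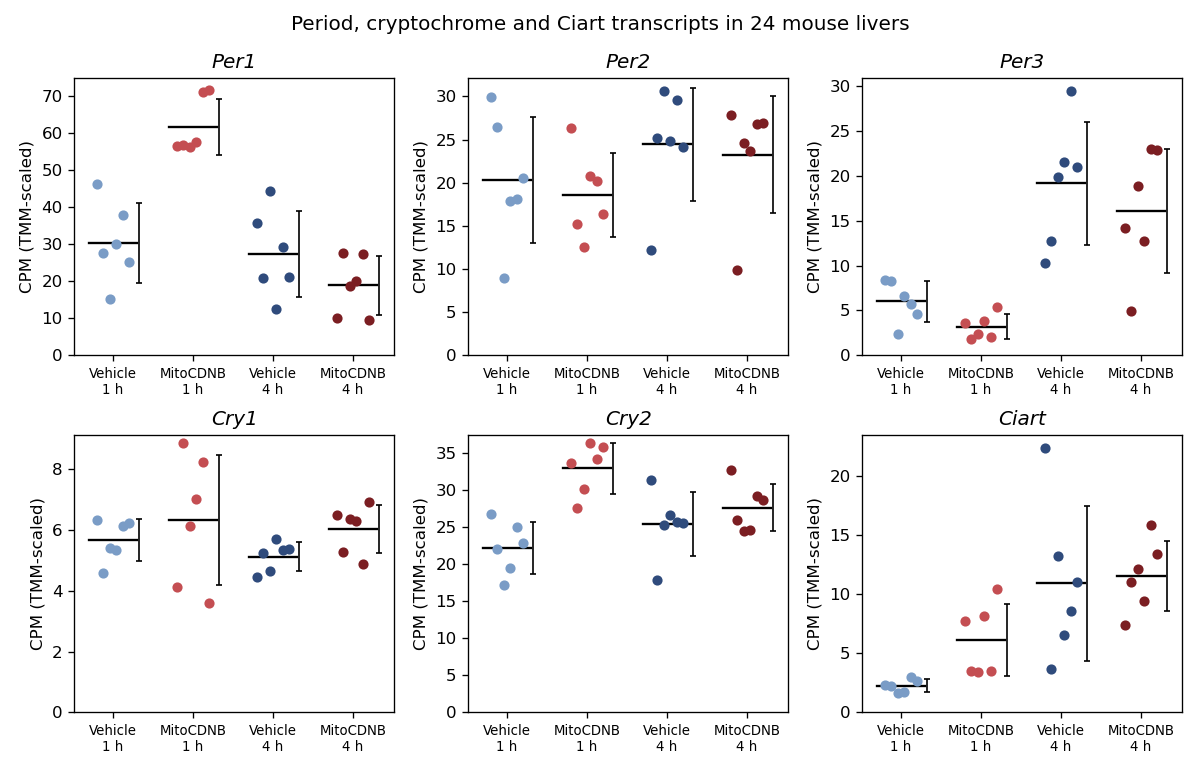
CPM of the 6 genes (y axis) by treatment and time (x axis), with a point per mouse, a line at the mean and a bar of 1 SD. At 1 h the treated mice lie above all vehicle mice for Per1 (56.1 to 71.6 against 15.1 to 46.1 CPM), Cry2 and Ciart, and Per3 and Ciart are higher in vehicle mice of 4 h than of 1 h.

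At 4 h none of the 6 members passed the test between MitoCDNB and vehicle livers. With edgeR 0 of 6 were called, beside 0.824% of all genes tested; 0 had an unadjusted p under 0.05, and DESeq2 and limma-voom with sample quality weights called 0. Per1 was at 12.6, 25.2 and 44.4 CPM in vehicle and at 9.53, 19.5 and 27.7 CPM in MitoCDNB livers, so that its ranges overlapped and its mean lay on the other side of vehicle than at 1 h (27.4 ± 11.5 against 18.9 ± 7.97 CPM, SD, n = 6; log2 -0.53, SE 0.300, edgeR adjusted p = 0.451). Cry2 was at 17.9, 25.7 and 31.4 CPM in vehicle and at 24.6, 27.4 and 32.7 CPM in MitoCDNB livers (log2 0.12, SE 0.112, edgeR adjusted p = 0.693). Ciart was at 3.64, 9.79 and 22.4 CPM in vehicle and at 7.39, 11.6 and 15.8 CPM in MitoCDNB livers (log2 0.08, SE 0.336, edgeR adjusted p = 0.949). Its highest vehicle value was replicate 1, which stood apart on the second component, and without the 2 libraries that stood apart the log2 value was 0.44 (adjusted p = 0.606).

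The other 3 members overlapped between the treatments of 4 h as well. Per2 was at 12.3, 25.0 and 30.6 CPM in vehicle and at 9.85, 25.7 and 27.8 CPM in MitoCDNB livers, a log2 difference of -0.07 (edgeR adjusted p = 0.944). In each group 1 liver was far below the rest, the same 2 livers that stood apart on the second component. Per3 was at 10.3, 20.4 and 29.4 CPM in vehicle and at 4.97, 16.5 and 23.02 CPM in MitoCDNB livers, a log2 difference of -0.25 (edgeR adjusted p = 0.806), and the same 2 livers were the lowest of their groups. Cry1 was at 4.46, 5.28 and 5.71 CPM in vehicle and at 4.89, 6.32 and 6.94 CPM in MitoCDNB livers. In Cry1, 4 treated livers lay above all vehicle livers, with a log2 difference of 0.23 (SE 0.163, edgeR adjusted p = 0.563).

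Whether the effect of MitoCDNB changed between the times was tested as the difference of the effects (4 h minus 1 h). It passed for 1 of 6 members, Per1, beside 4.07% of all genes tested. The effect on Per1 was 1.55 lower at 4 h on the log2 scale (log2 -1.55, SE 0.423, edgeR adjusted p = 0.0397). Like the rise at 1 h this call was near the threshold: it was kept without vehicle replicate 1 or 5 of 1 h, vehicle replicate 2, 4 or 6 of 4 h, or MitoCDNB replicate 2 or 5 of 4 h, and lost without each of the other 17 libraries in turn (adjusted p up to 0.0759). It was also lost with no count filter (adjusted p = 0.0647) and without replicates 4 to 6 of 1 h (log2 -1.46, adjusted p = 0.338). With replicate number as a block within time it was lost as well (log2 -1.62, adjusted p = 0.0781). For Ciart the difference was -1.35 (SE 0.502, edgeR adjusted p = 0.151) and for Cry2 -0.45 (SE 0.158, edgeR adjusted p = 0.123), so for these genes a change of the effect between times was not shown. Without vehicle replicate 2 of 4 h the difference for Cry2 passed (log2 -0.53, adjusted p = 0.0356). For Per2, Per3 and Cry1 the differences were 0.06, 0.66 and 0.08 (edgeR adjusted p = 0.968, 0.569 and 0.917). Some cell type markers were called in this difference too, and their part was not tested. By edgeR 2 of 3 neutrophil (median log2 -2.46) and 2 of 5 endothelial markers (-0.13) were lower. Of 8 hepatocyte markers 1 was higher. Of 5 cholangiocyte markers 0 were called and 4 had an unadjusted p under 0.05 (median log2 -0.91). No marker tested of the other cell types listed was called.

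**Figure D3:**
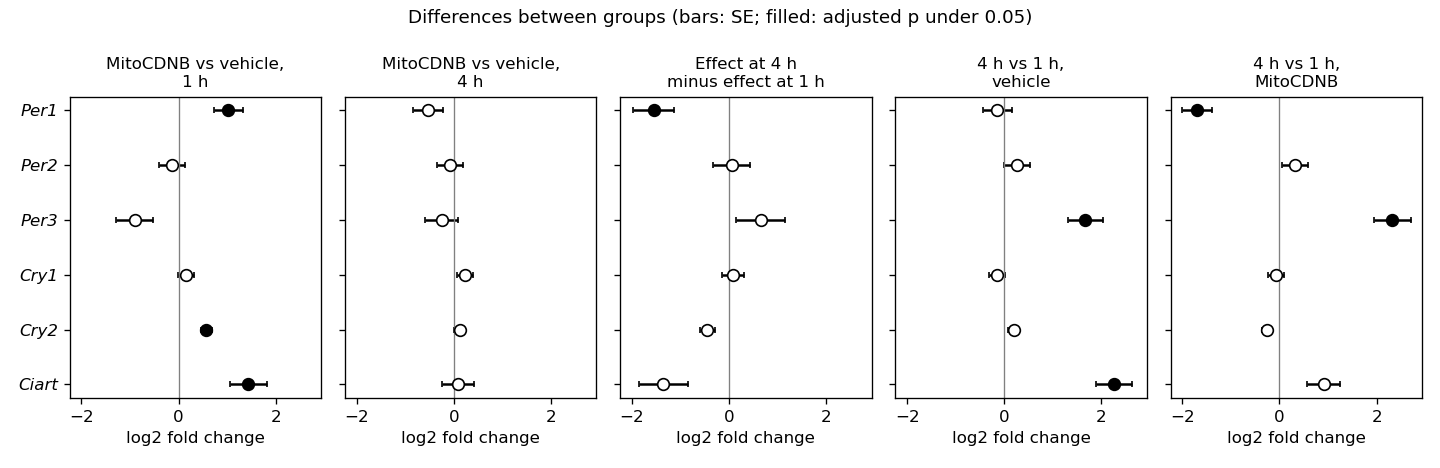
Log2 fold changes (x axis) of the 6 genes (y axis) in 5 comparisons, 1 panel each, with bars of 1 SE and filled points at an adjusted p under 0.05. Per1, Cry2 and Ciart are filled at 1 h after MitoCDNB, none is filled at 4 h, Per1 is filled in the difference of the effects at -1.55, and Per3 and Ciart are filled between the vehicle groups.

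Between the vehicle groups, Per3 and Ciart were higher at 4 h than at 1 h after injection, and the other 4 members did not pass the test. The 2 calls of 6 stand beside 5.44% of all genes tested. Per3 rose from 6.00 ± 2.30 to 19.1 ± 6.85 CPM (SD, n = 6), 3.18-fold by the fit, and all 6 livers of 4 h lay above all livers of 1 h (log2 1.67, SE 0.354, edgeR adjusted p = 0.00762). This call held without any single library and was lost without replicates 4 to 6 of 1 h (log2 1.59, adjusted p = 0.124). Ciart rose from 2.26 ± 0.527 to 10.9 ± 6.54 CPM (SD, n = 6), 4.79-fold by the fit, again with no overlap (log2 2.26, SE 0.372, edgeR adjusted p = 0.00121), and it passed in each alternative tried (adjusted p at most 0.0283). Per1 (log2 -0.15), Per2 (0.27), Cry1 (-0.14) and Cry2 (0.19) had edgeR adjusted p-values of 0.365 to 0.851. The vehicle livers of 1 h serve in this comparison and in that of treatment at 1 h, so the values of Ciart, 2.26 CPM in vehicle and 6.12 CPM in MitoCDNB at 1 h and 10.9 and 11.5 CPM at 4 h, are given here as 4 levels.

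Between the MitoCDNB groups, Per1 was lower and Per3 was higher at 4 h than at 1 h. The 2 calls of 6 members stand beside 28.5% of all genes tested, which is near their share. Per1 fell from 61.6 ± 7.56 to 18.9 ± 7.97 CPM (SD, n = 6), with every liver of 4 h below every liver of 1 h (log2 -1.70, SE 0.305, edgeR adjusted p = 2.61e-04). Per3 rose from 3.18 ± 1.38 to 16.1 ± 6.92 CPM (SD, n = 6), and 5 of the 6 livers of 4 h lay above all livers of 1 h (log2 2.33, SE 0.373, edgeR adjusted p = 8.05e-05). Replicate 2, which stood apart, was the exception for Per3 at 4.97 CPM. Both calls held in each alternative tried. Some markers of other cell types were called lower at 4 h beside the lower Per1, and their part was not tested. All 3 neutrophil markers were called lower (median log2 -3.09), with sums of 5.69 to 9.45 CPM at 1 h and 0.562 to 1.58 CPM at 4 h. Lower calls were also made for 2 of 5 endothelial markers. The endothelial sums were 135.1 to 233 CPM at 1 h and 133 to 178 CPM at 4 h, and their median was not lower (154 and 160 CPM). Of 7 brain markers tested 3 were called lower (sums over all 9 of 5.68 to 22.5 and 5.45 to 12.2 CPM). No stellate, Kupffer and monocyte, lymphocyte or erythroid marker tested was called. The median sum went from 117 to 132 CPM for stellate and from 198 to 169 CPM for Kupffer and monocyte markers. Of the 5 cholangiocyte markers 1 was called lower and 1 higher. Ciart had a log2 value of 0.91 (SE 0.345, edgeR adjusted p = 0.0529), Cry2 -0.26 (SE 0.112, edgeR adjusted p = 0.0884), and Per2 and Cry1 0.32 and -0.07 (edgeR adjusted p = 0.403 and 0.796). DESeq2 and weighted limma-voom called Ciart in this comparison, which passed in 10 of 14 alternatives.

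Levels of different members were compared per kb of exon sequence (GENCODE M21, GRCm38), since the exons of a gene joined span 2261 bases in Ciart and 9608 in Per3. In vehicle livers of 1 h the order was Per1 (5.38 ± 1.90 CPM per kb, SD, n = 6), Cry2 (3.52), Per2 (3.47), Cry1 (1.70), Ciart (1.00) and Per3 (0.62). Cry2 and Per2 could not be ordered within their spread, and Per1 and Cry2 differed by less than the SD of Per1. In MitoCDNB livers of 1 h Per1 reached 10.9 ± 1.34 CPM per kb, Cry2 5.22, Per2 3.17, Ciart 2.71, Cry1 1.90 and Per3 0.331. Of these, the means of Per2, Ciart and Cry1 differed by less than the SD of Ciart (1.35). In vehicle livers of 4 h Per1 (4.86), Ciart (4.82), Per2 (4.17) and Cry2 (4.03) stood close together, above Per3 (1.99) and Cry1 (1.54). With MitoCDNB at 4 h the means were 5.10 for Ciart, 4.38 for Cry2, 3.97 for Per2, 3.36 for Per1, 1.81 for Cry1 and 1.68 for Per3. The first 4 in vehicle livers of 4 h differed by less than the largest SD among them, and with MitoCDNB at 4 h no neighbours among the first 4 differed by more than the SD of the more variable gene. Per3 and Cry1 differed by less than the SD of Per3 in both groups of 4 h. The mean of Ciart in vehicle livers of 4 h rests in part on replicate 1, at 9.89 CPM per kb, and the lowest liver was at 1.61 CPM per kb.

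The genes lie on different chromosomes. On GRCm38, Per1 spans 69095217 to 69109960 of chromosome 11 (plus strand), Per2 91415982 to 91459324 of chromosome 1, Per3 151003652 to 151044665 of chromosome 4, Cry1 85131700 to 85185064 of chromosome 10, Cry2 92403646 to 92434043 of chromosome 2 and Ciart 95878503 to 95882251 of chromosome 3 (all minus strand). Per3 overlaps Camta1 and Ciart overlaps the antisense gene C920021L13Rik, with 0 exon bases shared in each case.

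Variation among livers of the same group was described by correlations between members. Over the 24 libraries, after the mean of each group had been taken away from log2 CPM, Per2 and Per3 had a Pearson r of 0.79, and Ciart and Cry2 of 0.64. Per1 had values of 0.02 and 0.04 with Per2 and Per3. These are descriptions over libraries that share their depth and scaling. Pearson's r within a group ran from 0.33 to 0.93 for Per2 and Per3, and from -0.21 to 0.87 for Ciart and Cry2. Within single groups of 6 livers, 60 correlations between members were computed and 0 passed adjustment by exact permutation tests, with 9 by Pearson's r and 1 by Spearman's rho at an unadjusted p under 0.05. The smallest p belonged to Per3 and Ciart in MitoCDNB livers of 1 h (r = 0.96, two-sided exact permutation p = 0.0125, adjusted p = 0.278; rho = 0.83; r = 0.98 without the 2 livers farthest from the median).

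By the same measure over 11227 genes, the genes most like Per3 were Dbp (r = 0.87), a D-box activator, Wee1 (0.85), a cell-cycle kinase, and Tef (0.82), a relative of Dbp. Those most like Per2 were Opa3 (0.84), Wee1 (0.84) and Homer2 (0.82). Per1 was followed most closely by Ubr2 (0.85), Lipg (0.84) and Mef2a (0.83), Ciart by Narf (0.80), Upp2 (0.79) and Hamp2 (0.78), Cry1 by Ttyh2 (0.79), Rpusd3 (0.75) and Tspan14 (0.72), and Cry2 by Sgtb (0.68), Kcnk5 (0.65) and Map2k6 (0.65). Arntl, chosen after its values were seen, had an r of -0.84 with Per3 and of -0.83 with Per2. The 2 livers of 4 h that stood apart had both low Per2 and low Per3. At 1 h vehicle replicate 3 was the lowest of its group in every member but Cry1.

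**Figure D4:**
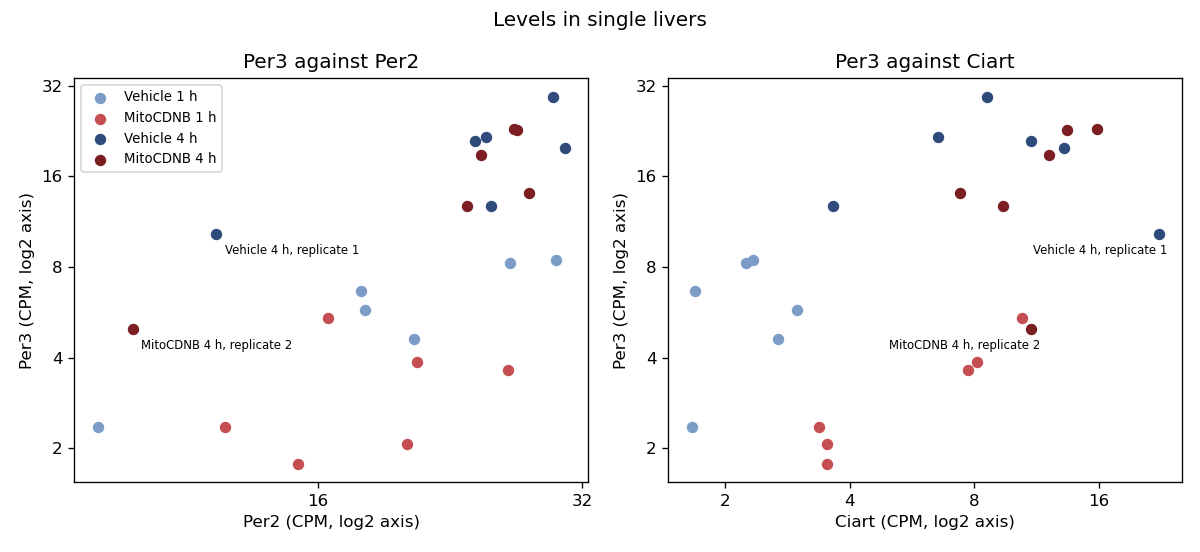
Per3 CPM (y axis, log2 scale) against Per2 CPM (left) and Ciart CPM (right; x axes, log2 scale) with a point per liver coloured by group. The labelled livers of 4 h, vehicle replicate 1 and MitoCDNB replicate 2, are the lowest of their groups in Per2 (12.3 and 9.85 CPM), and the treated livers of 1 h form a lower and an upper trio in Ciart.

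The other clock genes listed gave 46 tested of 47. At 1 h after MitoCDNB 7 rose and 4 fell, beside 6.57% of all genes called in either direction. At 4 h 2 rose and 0 fell, beside 0.824%. Between the vehicle groups 8 rose and 7 fell, beside 5.44%, and between the MitoCDNB groups 11 rose and 15 fell, beside 28.5%. The same shares stand behind the counts of single lists, which hold few genes each. All lists were chosen with earlier results of these data known, so their counts are descriptions and test no list. Against 11 calls over all mice of 1 h, 4 were made within replicates 1 to 3 and 6 within replicates 4 to 6, and against 15 calls between the vehicle groups, 3 were made without replicates 4 to 6 of 1 h. Calls named below for 1 h held without any single library unless stated.

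Among repressors outside the Period and cryptochrome families, 2 of 4 rose at 1 h and 0 fell (median log2 1.36, against 0.00 over all genes tested). Nfil3, which competes with DBP and TEF for the D-box, rose from 11.8 ± 2.51 to 39.7 ± 8.42 CPM (SD, n = 6; log2 1.75, edgeR adjusted p = 1.1e-04). Bhlhe40, which binds E-boxes as a repressor, rose from 58.3 ± 15.8 to 179 ± 15.3 CPM (SD, n = 6; log2 1.62, edgeR adjusted p = 1.35e-04). Its relative Bhlhe41 had a log2 value of 1.10 and an adjusted p of 0.0544. Among the receptors of the second loop, which act on Arntl, 1 of 4 tested rose and 1 fell at 1 h. The activator Rora rose from 35.2 ± 3.94 to 54.6 ± 2.45 CPM (SD, n = 6; log2 0.63, edgeR adjusted p = 6.1e-04), and the repressor Nr1d1, which codes for REV-ERB alpha, fell from 65.6 ± 17.6 to 38.2 ± 3.85 CPM (log2 -0.78, edgeR adjusted p = 6.17e-04).

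Of the 4 activators 0 were called by edgeR at 1 h (1 at an unadjusted p under 0.05), and Npas2, Arntl and Arntl2 had log2 values of 1.05, 0.67 and -0.43 (adjusted p = 0.144, 0.350 and 0.609). Of the 4 D-box factors and direct E-box outputs 1 fell and 0 rose (median log2 -0.69). Tef fell from 72.9 ± 13.96 to 48.9 ± 13.1 CPM (SD, n = 6; log2 -0.58, edgeR adjusted p = 0.0263), a call lost without vehicle replicate 1 or 2 or MitoCDNB replicate 2, 3 or 5 (adjusted p up to 0.0735). Dbp (-0.81, adjusted p = 0.326) and Usp2 (-0.80, adjusted p = 0.175), a ubiquitin protease, did not pass. Of 15 partners and modifiers of PER and CRY proteins 1 fell and 0 rose: Prkaa1, a catalytic subunit of AMP-activated kinase, had a log2 value of -0.30 (edgeR adjusted p = 0.0262), lost without vehicle replicate 1 or 2 or MitoCDNB replicate 1, 3, 4 or 6 (adjusted p up to 0.0754). The casein kinase Csnk1e (log2 0.32, adjusted p = 0.0593) and Sfpq (-0.25, adjusted p = 0.0841), a PER-associated RNA-binding protein, did not pass.

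The list of CREB and glucocorticoid inputs and their early targets had 4 of 15 genes up and 1 down at 1 h (median log2 0.07). The orphan receptor Nr4a1 rose from 4.96 ± 4.87 to 73.2 ± 16.6 CPM (SD, n = 6; log2 3.87, edgeR adjusted p = 4.16e-04), the kinase Sik1 from 13.5 ± 7.63 to 63.03 ± 5.88 CPM (log2 2.23, edgeR adjusted p = 3.75e-04) and the kinase Sgk1 from 15.05 ± 4.13 to 48.7 ± 5.10 CPM (log2 1.70, edgeR adjusted p = 2.76e-05). Outside the naming rule, Dusp1, a MAP kinase phosphatase, rose (log2 2.14, edgeR adjusted p = 0.0119) and Creb1 itself fell (log2 -0.38, edgeR adjusted p = 0.00449). Nr4a1, Sik1 and Dusp1 are known as early CREB targets and Sgk1 and Dusp1 as glucocorticoid targets. The glucocorticoid targets Fkbp5 and Tsc22d3 were not among the calls at 1 h. At 4 h the mean of Fkbp5 was 74.1 CPM in vehicle (28.7 to 198) and 160 CPM in MitoCDNB livers (109 to 207). That of Tsc22d3 was 40.01 CPM in vehicle (18.4 to 68.5) and 35.03 CPM in MitoCDNB livers (21.8 to 79.4). Neither gene was called between the treatments at 4 h. Which input acted on Per1 or on these genes was not tested.

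At 4 h after MitoCDNB the 2 calls were Arntl and Nr1d1, both outside the naming rule. Nr1d1, low at 1 h, was higher than vehicle at 4 h, at 78.7 ± 14.7 against 48.8 ± 4.59 CPM (SD, n = 6; log2 0.69, edgeR adjusted p = 0.0138), a call kept without any single library. Arntl was at 4.03 ± 1.88 against 1.20 ± 0.735 CPM (log2 1.75, edgeR adjusted p = 0.0374), a call kept without vehicle replicate 1 or MitoCDNB replicate 5 or 6 and lost without each of the other 9 libraries of 4 h in turn (adjusted p up to 0.0893). The difference of the effects passed for 1 other clock gene upward and 7 downward, beside 4.07% of all genes tested. It was 1.47 for Nr1d1 and negative for Nr4a1, Sik1, Dusp1, Sgk1, Bhlhe40, Nfil3 and Rora, genes that had risen at 1 h. The same livers of 1 h serve in this test and in that of treatment at 1 h.

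**Figure D5:**
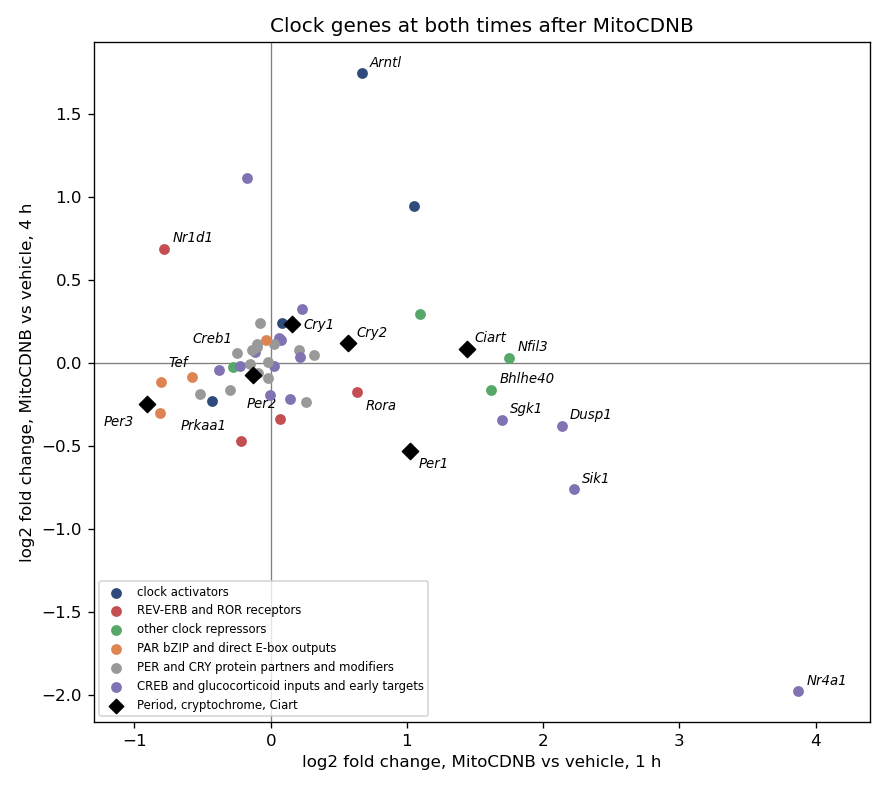
Log2 fold change of MitoCDNB over vehicle at 1 h (x axis) and 4 h (y axis), with a point per clock gene coloured by list and black diamonds for the Period, cryptochrome and Ciart genes; members and genes called at either time are named. Cry2, Ciart, Nfil3, Bhlhe40 and Sgk1 lie to the right near 0 on the y axis, Per1 lies lower right at 1.02 and -0.53, and Nr1d1 lies upper left.

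Between the vehicle groups, the activators were lower at 4 h than at 1 h in 3 of 4 cases. The log2 values were -0.60 for Clock, -1.76 for Arntl and -1.89 for Npas2, a CLOCK paralog (edgeR adjusted p = 8.89e-04, 0.0103 and 0.0289). Npas2 was low, at a mean of 0.548 CPM in vehicle livers of 1 h and 0.145 CPM at 4 h (0.0562 to 0.244). Npas2 lost its call without vehicle replicate 3 or 5 of 1 h or 4 or 6 of 4 h (adjusted p up to 0.0716). The D-box factors Tef and Dbp and the output Usp2 rose, by 0.75, 1.79 and 1.48 on the log2 scale (edgeR adjusted p = 0.00659, 0.0135 and 0.00744), 3 of 4 in that list, and Dbp went from 20.98 ± 8.77 to 72.6 ± 26.01 CPM (SD, n = 6). Of the other repressors 2 of 4 rose, Bhlhe41 by 1.61 and the CLOCK-interacting gene Cipc by 0.35 (edgeR adjusted p = 0.00637 and 0.0257), and Bhlhe40 was at 0.75 (adjusted p = 0.0669). The call of Cipc was lost without vehicle replicate 1, 5 or 6 of 1 h or 3 or 6 of 4 h (adjusted p up to 0.0744).

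In the second loop 1 of 4 tested rose between the vehicle groups, Nr1d2, by 0.39 (edgeR adjusted p = 0.0218; lost without vehicle replicate 3 or 6 of 1 h or 3 or 5 of 4 h, up to 0.0652), and Nr1d1 (-0.43) and Rora (-0.30) did not pass (adjusted p = 0.0667 and 0.125). Of the 15 PER and CRY partners, the casein kinase Csnk1d (log2 -0.28, edgeR adjusted p = 0.0135) and Btrc (-0.28, adjusted p = 0.0417), a subunit of the ligase that degrades PER proteins, were lower and Timeless (0.53, adjusted p = 0.0171) was higher. Of the 15 CREB and glucocorticoid genes, Fkbp5 rose (log2 1.68, edgeR adjusted p = 0.0106) and Crem (-0.56, adjusted p = 0.0468) and Tsc22d3 (-1.18, adjusted p = 0.0496) were lower. Fkbp5 was at 198 CPM in vehicle replicate 1 of 4 h and its log2 value was 1.09 at the lowest among the fits that left out a single library. Btrc, Crem and Tsc22d3 kept their calls without 3 of 12 libraries each: vehicle replicate 2 or 4 of 4 h or 4 of 1 h for Btrc, vehicle replicate 2 of 4 h or 5 or 6 of 1 h for Crem, and vehicle replicate 1 or 3 of 4 h or 3 of 1 h for Tsc22d3 (adjusted p up to 0.0865, 0.110 and 0.110 otherwise).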

How the data were processed

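Polyadenylated RNA of the medial liver lobe of 24 mice had been sequenced from NEBNext Ultra libraries, per the labels' protocols. The authors deposited a table of raw counts per gene symbol and library, all whole numbers. The tools and build listed, per the submitters' processing notes, are HISAT2, Trim Galore, CASAVA 1.8.4, DESeq2 and mm10. The sources used here name no counting tool, annotation or strand setting. Groups and replicate numbers came from the sample titles. Replicates are mice per the labels, and no 2 libraries of a group agreed within sampling noise (chi-square per degree of freedom at least 15.6 over 60 pairs).

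Genes were kept by filterByExpr of edgeR 4.0.16 (R 4.3.3; minimum count 10, minimum total 15). This left 13833 genes and removed 0.0306% of the counts. The 20 major urinary protein genes were kept. TMM scaling was used, and counts were fitted with 4 groups and robust quasi-likelihood, and the common biological coefficient of variation was 0.179. The contrasts shown were tested, with Benjamini-Hochberg adjustment over all genes tested. The SE is the size of the log2 fold change over the square root of F. The script was tested on simulated counts with known changes. Precision rests on 6 mice a group.

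The 6 genes, the 6 lists of other clock genes and the motifs were chosen with earlier results of these data known. Named genes were all members, up to 3 genes of each list with the smallest p at 1 h and between the vehicle groups, and the 3 genes most correlated with each member at a mean of at least 1 CPM. Predicted genes, Riken clones and pseudogenes were skipped among the last. Of the genes so named, 1 is not reported here. Alternatives were other size factors, other filters, DESeq2 1.42.0, limma-voom with sample quality weights (limma 3.58.1), no robust estimation, only the groups compared, a replicate block, a library number term, a threshold of 0.01 and each library left out in turn. Chosen after seeing the data were fits leaving out the pair of 4 h libraries that stood apart, with a term for replicates 4 to 6 of 1 h, within either set of 1 h replicates, and without replicates 4 to 6 of 1 h between the times.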

Additional observations from a re-analysis of the deposited data

Results flagged for a closer look

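In Per2, 1 liver of each 4 h group lay far below the other 5. Vehicle replicate 1 was at 12.3 CPM, a gap of 0.651 of the whole range of its group, and MitoCDNB replicate 2 was at 9.85 CPM, a gap of 0.768, both above the 95% critical value of Dixon's test for 6 samples. Chance alone gives such a gap in about 1 in 20 groups, and 24 groups were searched (6 genes in 4 groups). These are also the libraries that stood apart on the second principal component.

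The effect of MitoCDNB differed between 4 h and 1 h, by the test of the difference itself, for Per1 among the members (log2 -1.55, edgeR adjusted p = 0.0397). Among the other clock genes named, it was lower at 4 h for Nr4a1 (-5.85, 7.03e-04), Sik1 (-2.99, 0.00117), Dusp1 (-2.51, 0.0471), Sgk1 (-2.04, 4.06e-04), Bhlhe40 (-1.78, 0.00271), Nfil3 (-1.72, 0.0064) and Rora (-0.81, 0.00329), each given as the log2 difference and the edgeR adjusted p. It was higher at 4 h for Nr1d1 (1.47, edgeR adjusted p = 5.51e-05). The call of Dusp1 was kept without vehicle replicate 1 or 2 or MitoCDNB replicate 1 of 1 h, or vehicle replicate 4 or 6 or MitoCDNB replicate 2 of 4 h, and lost without each of the other 18 libraries in turn (adjusted p up to 0.0914). Those of the other 7 clock genes named here held without any single library. Without replicates 4 to 6 of 1 h, Sgk1 and Nr1d1 kept their calls (adjusted p at most 0.00901 over their alternatives), and Rora (0.0557), Nr4a1 (0.0637), Bhlhe40 (0.0840), Sik1 (0.0889), Nfil3 (0.108) and Dusp1 (0.489) did not.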

How the results depend on the processing

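No called value of a member changed direction under any alternative; the signs that changed belonged to values that did not pass in any fit. With no count filter, 0 members passed the difference of effects (1 as reported) and 1 other clock gene was called at 4 h (2 as reported). With the compared groups alone, 1 other clock gene was called at 4 h, 9 between the vehicle groups (15 as reported) and 4 members between the MitoCDNB groups (2 as reported). At a threshold of 0.01, 1 member was called at 1 h (3 as reported), 0 members in the difference of effects, 0 other clock genes at 4 h and 4 between the vehicle groups. Within replicates 1 to 3 of 1 h, 0 members and 4 other clock genes were called at 1 h (11 as reported), and within replicates 4 to 6, 1 and 6. Without replicates 4 to 6 of 1 h, 0 members and 2 other clock genes passed the difference of effects (8 as reported), and 1 member (2 as reported) and 3 other clock genes were called between the vehicle groups. These fits hold fewer mice. Leaving out 1 library at a time gave 1 to 3 members called at 1 h, 0 to 2 in the difference of effects and 2 to 4 between the MitoCDNB groups, and 1 to 3 other clock genes at 4 h. The cause of the other changes was not tested.

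The labels do not pair mice by number. Same-numbered livers had correlations of their deviations from -0.07 to 0.21 at 1 h and -0.21 to 0.26 at 4 h, with 1 and 3 of 6 pairs over 0.1, and 5 and 4 of 12 libraries correlated best with their own number, so the numbers were not taken as pairs. With the replicate block within time, 1 member was called at 1 h and 0 in the difference of effects, and with the replicate block by number alone 4 were called between the MitoCDNB groups. Ciart and Per1 at 1 h had adjusted p-values of 0.0701 and 0.0687 under the block, and the difference of effects for Per1 had 0.0781.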

Other observations

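In MitoCDNB livers of 1 h, the 3 mice with the higher Ciart levels (replicates 1, 4 and 6) also had the higher Per3 levels, at 3.64, 3.86 and 5.41 CPM against 1.78 to 2.36 CPM in replicates 2, 3 and 5. In the same order they had 2.72, 5.31 and 4.17 CPM of Arntl, against 7.72 to 9.58 CPM, and 15.1, 12.9 and 25.6 CPM of Dbp, against 3.74 to 8.72 CPM. These mice were sorted by Ciart after the values were seen, and no test was made. Among the 4 h livers, the 2 with the lowest Per2 and Per3, vehicle replicate 1 and MitoCDNB replicate 2, had the highest Arntl of their groups (2.58 and 7.45 CPM) and the lowest Dbp (39.7 and 27.0 CPM).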
